A study of Homo sapiens with 2 samples.

Results

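The cells described here are primitive-streak cells: H1 human embryonic stem cells that carried transcripts of the streak transcription factors MIXL1, EOMES and TBXT after 48 h of bone morphogenetic protein 4 (BMP4). They were chosen on measured values. A cell was a member if it had at least 10000 unique molecular identifiers (UMIs, counted transcripts), at most 7500 detected genes and at most 25% mitochondrial UMIs, if MIXL1, EOMES and TBXT together made up at least 1 UMI per 10000 of the cell, and if CER1 and GSC together stayed under 1 per 10000. Of 6211 cells within the limits on depth, genes and mitochondrial UMIs, 721 were members, out of 10023 cells deposited. In the library labelled WT 628 of 2173 filtered cells were members, and in the library labelled GATA3 KO 93 of 4038.

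Each group was 1 library, so nothing below rests on replicates and no test was made. Every interval is a 95% interval for counting error only. Both cultures were kept in mTeSR1 with 50 ng/ml BMP4 for 48 h. The WT library was made from unmodified H1 cells, an established line, and the GATA3 KO library from KO-GATA3-06, 1 clone of an H1 line into which a switchable Cas9 had been built, so the effects of genotype, Cas9 insert and clone cannot be told apart. The protocol note of the WT library gives 1 h of BMP4, whereas its title and its duration field give 48 h. Primitive-streak cells of both libraries had like depth, with a median of 49635 UMIs in WT and 49141 in GATA3 KO, against 46295 and 44758 in the other filtered cells. The libraries shared 8 cell barcodes, of which 3 marked WT members and 0 marked GATA3 KO members. The GATA3 transcript, read at its 3′ end, stood at 14.5 CPM (13.2 to 15.99) in the WT members and 9.62 CPM (6.93 to 13.0) in the GATA3 KO members, so the transcript gives no check of the genotype, and directions follow the labels.

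The primitive streak is the site where epiblast cells leave pluripotency during gastrulation and become mesoderm and endoderm. BMP4 starts the process in culture by way of WNT3 and NODAL, 2 secreted signals that act in turn and feed back on each other, with FGF4 and FGF8 as further ligands made in the streak. EOMES and TBXT are T-box factors and MIXL1 is a homeodomain factor, and all of them respond to NODAL and WNT signalling. CER1, a secreted antagonist of NODAL, WNT and BMP, and GSC, a homeodomain factor, mark the anterior streak, whose cells the rule left out.

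MIXL1 and SP5 carry the label of these cells, MIXL1 as the most abundant rule gene in WT and SP5, a zinc-finger factor downstream of WNT, as the marker the rule did not use. Their 250 bases before the RefSeq transcription start are shown because both windows hold the same pair of short motifs, each on the reverse strand. In capitals are CTTTGAT, the reverse of the TCF/LEF motif ATCAAAG read by the WNT effectors, and TGTGGATT, the reverse of AATCCACA, a motif of FOXH1, which binds DNA together with SMAD2 and SMAD3 downstream of NODAL.
MIXL1 (GRCh38.p14, chr1:226223414-226223663, plus strand): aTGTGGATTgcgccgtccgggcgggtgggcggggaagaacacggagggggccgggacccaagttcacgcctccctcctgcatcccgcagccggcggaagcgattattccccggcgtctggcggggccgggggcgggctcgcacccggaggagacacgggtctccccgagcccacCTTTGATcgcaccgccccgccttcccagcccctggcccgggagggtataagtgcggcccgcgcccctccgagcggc
SP5 (GRCh38.p14, chr2:170715087-170715336, plus strand): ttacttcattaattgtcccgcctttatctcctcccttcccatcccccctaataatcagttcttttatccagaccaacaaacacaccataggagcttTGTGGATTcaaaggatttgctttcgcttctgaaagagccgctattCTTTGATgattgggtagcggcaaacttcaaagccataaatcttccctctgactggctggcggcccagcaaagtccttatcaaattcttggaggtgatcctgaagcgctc
The TCF/LEF match began 76 bases before the start in MIXL1 and 109 in SP5, and the FOXH1 match 249 and 154 bases before it. Over both strands, 2.261% of 35116 RefSeq promoter windows of this length held ATCAAAG and 0.709% held AATCCACA. The same 5 motifs were searched before EOMES, TBXT, WNT3 and NODAL, where none of them matched. The other motifs were TCACACC for T-box factors (2.762% of windows), AGATAAG for GATA factors (2.361%) and CAGACA for SMADs (13.606%). These are matches of letters only, and no binding was measured.

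The label was checked with FGF4 and SP5, which the rule did not use, although they were counted in the same cells. Marker-negative cells, meaning filtered cells under both cuts, served as the background within each library (1343 in WT, 3936 in GATA3 KO). FGF4, a ligand of the early streak (ENSG00000075388, chromosome 11, 69771022 to 69775341), stood at 29.2 CPM (27.3 to 31.2) in WT members and 1.98 CPM (1.64 to 2.37) in WT marker-negative cells. In GATA3 KO the levels were 7.10 CPM (4.83 to 10.1) and 1.01 CPM (0.860 to 1.17). SP5 (ENSG00000204335, chromosome 2, 170715337 to 170718078) was at 75.8 CPM (72.7 to 79.0) against 15.6 CPM (14.6 to 16.6) in WT, and at 50.2 CPM (43.7 to 57.3) against 2.83 CPM (2.58 to 3.09) in GATA3 KO. Both markers were therefore above the background in both libraries, with FGF4 in the GATA3 KO members resting on 31 UMIs. The WT anterior-streak cells, those at or above the limit on CER1 and GSC, were higher still, at 91.3 CPM (85.3 to 97.6) of FGF4 and 106 CPM (99.8 to 113) of SP5, so these markers do not tell the members from them. Of the WT members 85 of 628 had neither marker, and of the GATA3 KO members 31 of 93.

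KRT7 and HAND1, 2 of the 16 genes of the amnion and trophectoderm list, were low in absolute level in the members. The summed level of that list was nevertheless higher in members than in marker-negative cells of both libraries. KRT7, a keratin of amnion and trophoblast, stood at 0.949 CPM (0.631 to 1.37) in WT members and 0.687 CPM (0.142 to 2.01) in GATA3 KO members, and HAND1, a factor of extraembryonic mesoderm and amnion, at 3.08 CPM (2.48 to 3.79) and 2.75 CPM (1.42 to 4.80). The amnion and trophectoderm list of 16 genes, which KRT8 and KRT18 dominate, had a median over cells of 905 CPM in WT members and 717 in WT marker-negative cells, and of 1285 and 883 CPM in GATA3 KO. The pluripotency list of 17 genes went the other way, with a median of 3710 CPM in WT members against 5497 in marker-negative cells, and of 5146 against 6287 CPM in GATA3 KO. For the neural list of 15 genes the medians were 180 and 185 CPM in WT and 184 and 242 CPM in GATA3 KO. The anterior streak and endoderm list of 13 genes, without CER1 and GSC, which FST dominates, had a higher summed level in members. Its medians were 82.6 and 66.4 CPM in WT and 138 and 77.6 CPM in GATA3 KO. Of these genes 1, FST, reached 20 CPM in WT, and 2, FST and OTX2, did in GATA3 KO. Against the other filtered cells, none of the list was called in WT, and in GATA3 KO FST was called higher and OTX2 lower. A set cut from a summed level is a range of cells and not a discrete type, and the next values show how the cut lies.

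Over the 628 WT members the summed level of the rule genes had a median of 2.86 UMIs per 10000 (quartiles 1.73 and 5.15, highest 17.2). The 93 GATA3 KO members had a median of 1.61 (quartiles 1.20 and 2.68, highest 7.88). Behind these levels were medians of 13 and 8 rule-gene UMIs per cell, and 50 WT and 14 GATA3 KO members were admitted on 4 UMIs or fewer. The lowest member in WT stood at 1.01 per 10000 and the highest cell just outside at 0.999, and in GATA3 KO at 1.00 and 0.999. Between 1 and 1.25 per 10000 lay 61 WT and 29 GATA3 KO members, and between 0.8 and 1 lay 70 and 30 cells that were left out. In all, 199 WT members (31.7%) stood between 1 and 2 per 10000, 206 between 2 and 4, 167 between 4 and 8, and 56 at 8 or more. In GATA3 KO the numbers were 59 (63.4%), 22, 12 and 0. Members of the GATA3 KO library thus lay closer to the cut. At the other end, 59.3% of WT marker-negative cells and 87.3% of GATA3 KO marker-negative cells had no rule-gene UMI at all.

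The share of primitive-streak cells among filtered cells was 28.9% (27.0 to 30.9) in WT and 2.30% (1.86 to 2.81) in GATA3 KO, a difference of -26.6 percentage points (-28.6 to -24.6) and a 12.5-fold ratio. The share follows from the rule genes that defined it and is a description. The size of the ratio followed the cut. It was 7.66-fold at 0.5 per 10000, 23.4-fold at 2 per 10000, 24.4-fold with EOMES left out of the sum, and 5.99-fold when cells were first thinned at random to 10000 UMIs and any rule-gene UMI sufficed. The WT share was the larger under each of the 14 other ways of choosing cells that were tried.

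**Figure D1:**
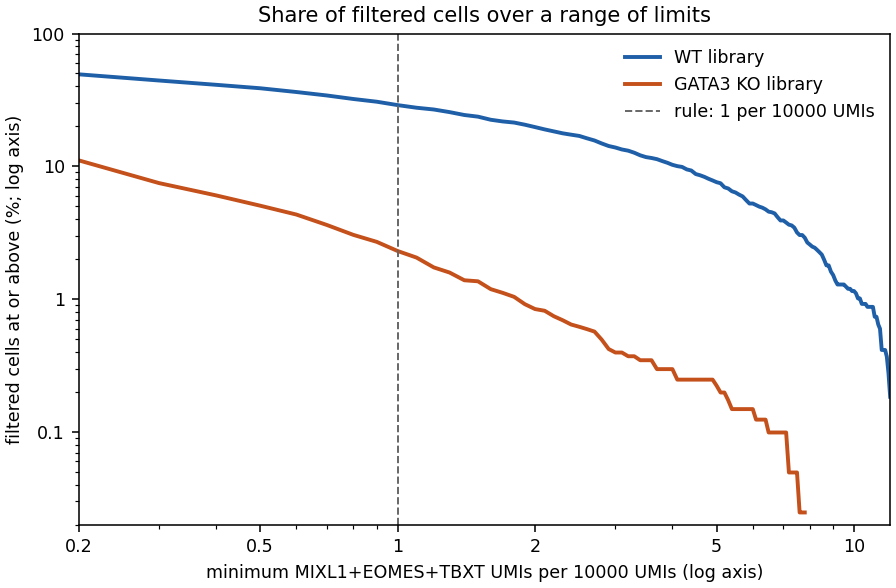
Share of filtered cells (%, log axis) at or above each minimum of summed MIXL1, EOMES and TBXT UMIs per 10000 UMIs of the cell (log axis), among cells under 1 per 10000 of CER1 and GSC, for the WT and GATA3 KO libraries. The curve of GATA3 KO lies below that of WT over the whole range, and at the dashed limit of 1 per 10000 the shares are 28.9% and 2.30%.

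The 3 rule genes were not carried equally. Gene positions are given on GRCh38 from GENCODE. In summed counts, MIXL1 (ENSG00000185155, chromosome 1, 226223618 to 226227060) stood at 216 CPM (210.5 to 221) in WT members and 85.9 CPM (77.4 to 95.1) in GATA3 KO members. EOMES (ENSG00000163508, chromosome 3, 27715949 to 27722711) stood at 121 CPM (117 to 125) and 115 CPM (105 to 126). The least abundant of the 3, TBXT, lies on chromosome 6 (ENSG00000164458, 166157656 to 166168700) and stood at 46.7 CPM (44.3 to 49.3) and 30.01 CPM (25.1 to 35.6). The members of the 2 libraries thus had a like level of EOMES and a lower level of MIXL1 and TBXT in GATA3 KO. A cell could pass the rule on any of the 3 genes. These levels therefore follow in part from the choice of cells and are a description only. With every cell thinned at random to 10000 UMIs, 367 WT members (58.4%) and 29 GATA3 KO members (31.2%) had a UMI of 2 or more rule genes. All 3 were detected in 118 (18.8%) and 5 (5.38%), and EOMES alone in 12.6% and 35.5%.

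Each rule gene was also read in cells chosen by the other 2, with cells past the CER1 and GSC limit left out on both sides. MIXL1 in cells chosen by EOMES and TBXT was at 238 CPM (232 to 245) in WT, against 23.0 CPM (21.9 to 24.2) in the cells not chosen. In GATA3 KO it was at 81.3 CPM (71.4 to 92.1) against 1.82 CPM (1.63 to 2.04). EOMES in cells chosen by MIXL1 and TBXT was at 127 against 19.6 CPM in WT and at 121 against 4.88 CPM in GATA3 KO. TBXT in cells chosen by MIXL1 and EOMES was at 44.4 against 7.12 CPM in WT and at 26.1 against 0.731 CPM in GATA3 KO. In both libraries the 3 genes therefore tended to stand together in the same cells. These values share the cells and their depth.

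The programme of the members was set against the other filtered cells of the same library as log2 ratios of CPM plus 1 CPM, a scale that understates differences of low genes. A gene was counted when it reached 20 CPM in the higher set, and was called past 2-fold. In WT, 35 of 5134 genes were called higher in members (0.682%) and 32 lower (0.623%), with a median ratio of -0.000996. In GATA3 KO, 69 of 5401 genes were called higher (1.28%) and 48 lower (0.889%), with a median of 0.01. The other cells of WT included 198 anterior-streak cells that also pass the cut on the rule genes, which brings the WT ratios towards 0, so levels in marker-negative cells are given as well. All of these genes were counted in the cells that the rule chose, so the ratios describe the members. Against the WT anterior-streak cells, 17 of 5181 genes were called higher in WT members (0.328%) and 38 lower (0.733%), genes of the rule included. A gene set below against marker-negative or other cells is therefore not shown to be particular to the members.

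NODAL, the TGF-beta ligand of the streak (ENSG00000156574, chromosome 10, 70431936 to 70447951), was among the genes called higher in both libraries. It stood at 159 CPM (154 to 163) in WT members, 59.96 CPM (58.0 to 62.0) in WT marker-negative cells, 185 CPM (173 to 198) in GATA3 KO members and 13.3 CPM (12.8 to 13.9) in GATA3 KO marker-negative cells. Its ratio of members to other cells was 1.01 (0.95 to 1.07) in WT and 3.63 (3.52 to 3.74) in GATA3 KO. The wider ratio in GATA3 KO came with a lower level in the cells outside, and the level in the members was no lower than in WT. Of the NODAL pathway list, 1 of 9 measured genes was called higher in WT (median -0.03), and 4 of 10 in GATA3 KO (median 0.19), namely NODAL, its co-ligand GDF3, the NODAL antagonist LEFTY1 and PMEPA1, a target and brake of SMAD2 and SMAD3. None was called lower in either library.

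LEFTY1, a feedback antagonist of NODAL, differed between the libraries. In WT it was at 12.9 CPM (11.7 to 14.3) in members and 19.3 CPM (18.2 to 20.5) in marker-negative cells. In GATA3 KO it was at 33.4 CPM (28.2 to 39.3) in members and 4.53 CPM (4.22 to 4.86) in marker-negative cells. Its ratio of members to other cells was -0.42 (-0.58 to -0.26) in WT, where it became 0.022 under the thinned rule of 1 UMI, and 2.59 (2.34 to 2.83) in GATA3 KO. LEFTY2, its neighbouring paralogue, was about level in WT, at 9.53 CPM in members and 10.4 CPM in marker-negative cells. In GATA3 KO it was higher in members, as LEFTY1 was, at 15.6 against 1.66 CPM. Reads of the LEFTY1 and LEFTY2 pair can be split between near-identical copies, so each value is uncertain.

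WNT3, the WNT ligand that acts upstream of the streak (ENSG00000108379, chromosome 17, 46762506 to 46833154), stood at 38.5 CPM (36.3 to 40.8) in WT members and 10.6 CPM (9.77 to 11.4) in marker-negative cells, and at 34.1 CPM (28.9 to 40.1) and 4.12 CPM (3.82 to 4.44) in GATA3 KO. It was the one ligand or receptor of the WNT list called higher in either library, out of 5 measured in WT and 6 in GATA3 KO, and FZD7, a WNT receptor, was called lower in GATA3 KO at -1.43 (-1.80 to -1.07). Of the list of WNT targets and feedback genes SP5 alone reached 20 CPM, and it was called higher in both. LEF1, a nuclear effector of WNT, was low but stood at 4.68 CPM (3.93 to 5.53) in WT members against 1.20 CPM (0.937 to 1.51), while AXIN2, a feedback target, stood at 6.07 and 6.405 CPM. The secreted WNT antagonist SFRP1 was the lowest list gene of the members in both libraries. It stood at 15.6 CPM (14.2 to 17.1) in WT members against 213 CPM (209.5 to 217) in marker-negative cells, and at 33.7 CPM (28.5 to 39.6) against 536 CPM (532 to 539) in GATA3 KO.

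FGF8, a streak ligand (ENSG00000107831, chromosome 10, 101770109 to 101780371), had the highest ratio of all named genes in GATA3 KO. It stood at 36.3 CPM (34.1 to 38.5) in WT members against 10.1 CPM (9.34 to 11.0) in marker-negative cells, and at 36.0 CPM (30.6 to 42.1) against 1.22 CPM (1.06 to 1.40) in GATA3 KO. Its ratios to the other cells were 1.47 (1.35 to 1.60) and 4.0 (3.75 to 4.24). The FGF list had 1 of 11 measured genes called higher in WT (FGF8) and 2 of 10 in GATA3 KO (FGF8 and SPRY1, an inhibitor of FGF signalling), with medians of 0.32 and 0.25 and none called lower. FGF4 fell just short of the call in WT at 0.98 (0.85 to 1.11), and in GATA3 KO it did not reach 20 CPM. FGF17, by contrast, stood at 5.97 CPM in WT members and 137 CPM in the CER1 and GSC cells, and at 0 UMIs in the GATA3 KO members, which allows up to 3 UMIs of 4365383.

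Regulators of later mesoderm were low in the members. MESP1, a factor of early mesoderm that leaves the streak, stood at 10.3 CPM (9.21 to 11.6) in WT members, 1.89 CPM (1.56 to 2.28) in marker-negative cells and 124 CPM (117 to 131) in the 202 WT anterior-streak cells. One WT member held 117 of the 305 MESP1 UMIs (38.4%), and without it, an alternative chosen after seeing the data, the level was 6.38 CPM and the ratio to all other cells -1.42. In the GATA3 KO members MESP1 was a single UMI, or 0.229 CPM (0.00580 to 1.28). Whether the ratio of MESP1 was above or below 0 in WT turned on those anterior cells: it was -0.80 (-0.97 to -0.63) against all other cells and 1.97 with the CER1 and GSC cells taken out of the comparison. EVX1, a homeobox factor of the posterior streak, was at 7.12 CPM (6.19 to 8.15) against 1.08 CPM (0.833 to 1.38) in WT and at 5.96 CPM (3.89 to 8.73) against 0.663 CPM (0.546 to 0.797) in GATA3 KO. CDX1, a caudal homeobox factor, was at 3.76 CPM (3.10 to 4.53) against 0.879 CPM (0.656 to 1.15) in WT and 4.12 CPM (2.44 to 6.52) against 0.237 CPM (0.169 to 0.322) in GATA3 KO. Both were low in count and higher in members of both libraries. GATA6 and SOX17, factors of endoderm, were at 3.19 and 10.8 CPM in WT members and at 69.6 and 47.9 CPM in the anterior-streak cells.

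Genes of the epithelial-to-mesenchymal transition were mostly near a ratio of 0 in the members. Of the list, 1 of 10 measured genes was called higher in WT and 1 of 9 in GATA3 KO, in both cases PCDH10, a protocadherin, and VIM, an intermediate filament of mesenchymal cells, was called lower in both. PCDH10 stood at 152 CPM (147 to 156) in WT members against 34.0 CPM (32.6 to 35.6) in marker-negative cells. VIM stood at 75.3 CPM against 232 CPM in WT and at 126 against 293 CPM in GATA3 KO. CDH1, the epithelial cadherin, was at 86.0 and 91.3 CPM in WT members and marker-negative cells, and CDH2, the mesenchymal cadherin, at 74.0 and 42.1 CPM. SNAI1, a repressor of CDH1, was at 4.44 and 1.96 CPM. The members thus had no lower epithelial cadherin past 2-fold, and CDH2 was far higher in the anterior-streak cells at 186 CPM.

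Pluripotency factors split in the members. SOX2 stood at 49.2 CPM (46.7 to 51.8) in WT members against 219 CPM (215 to 223) in marker-negative cells, and at 129.7 CPM (119 to 141) against 397 CPM (394 to 399.6) in GATA3 KO. NANOG, which is also kept in streak cells, was at 90.1 CPM (86.7 to 93.6) against 72.6 CPM (70.4 to 74.8) in WT and at 134 CPM (124 to 146) against 53.4 CPM (52.3 to 54.5) in GATA3 KO. POU5F1 was at 944 and 927 CPM in WT members and marker-negative cells, and at 1705 and 1471 CPM in GATA3 KO. SOX2 was therefore lower in members of both libraries, whereas NANOG was higher and POU5F1 about level. Of 13 measured genes of the list, 0 were called higher and 3 lower in WT (SOX2, USP44 and TERF1, median -0.34). In GATA3 KO NANOG was called higher and 4 were called lower, DNMT3B joining those 3 (median -0.21).

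**Figure D2:**
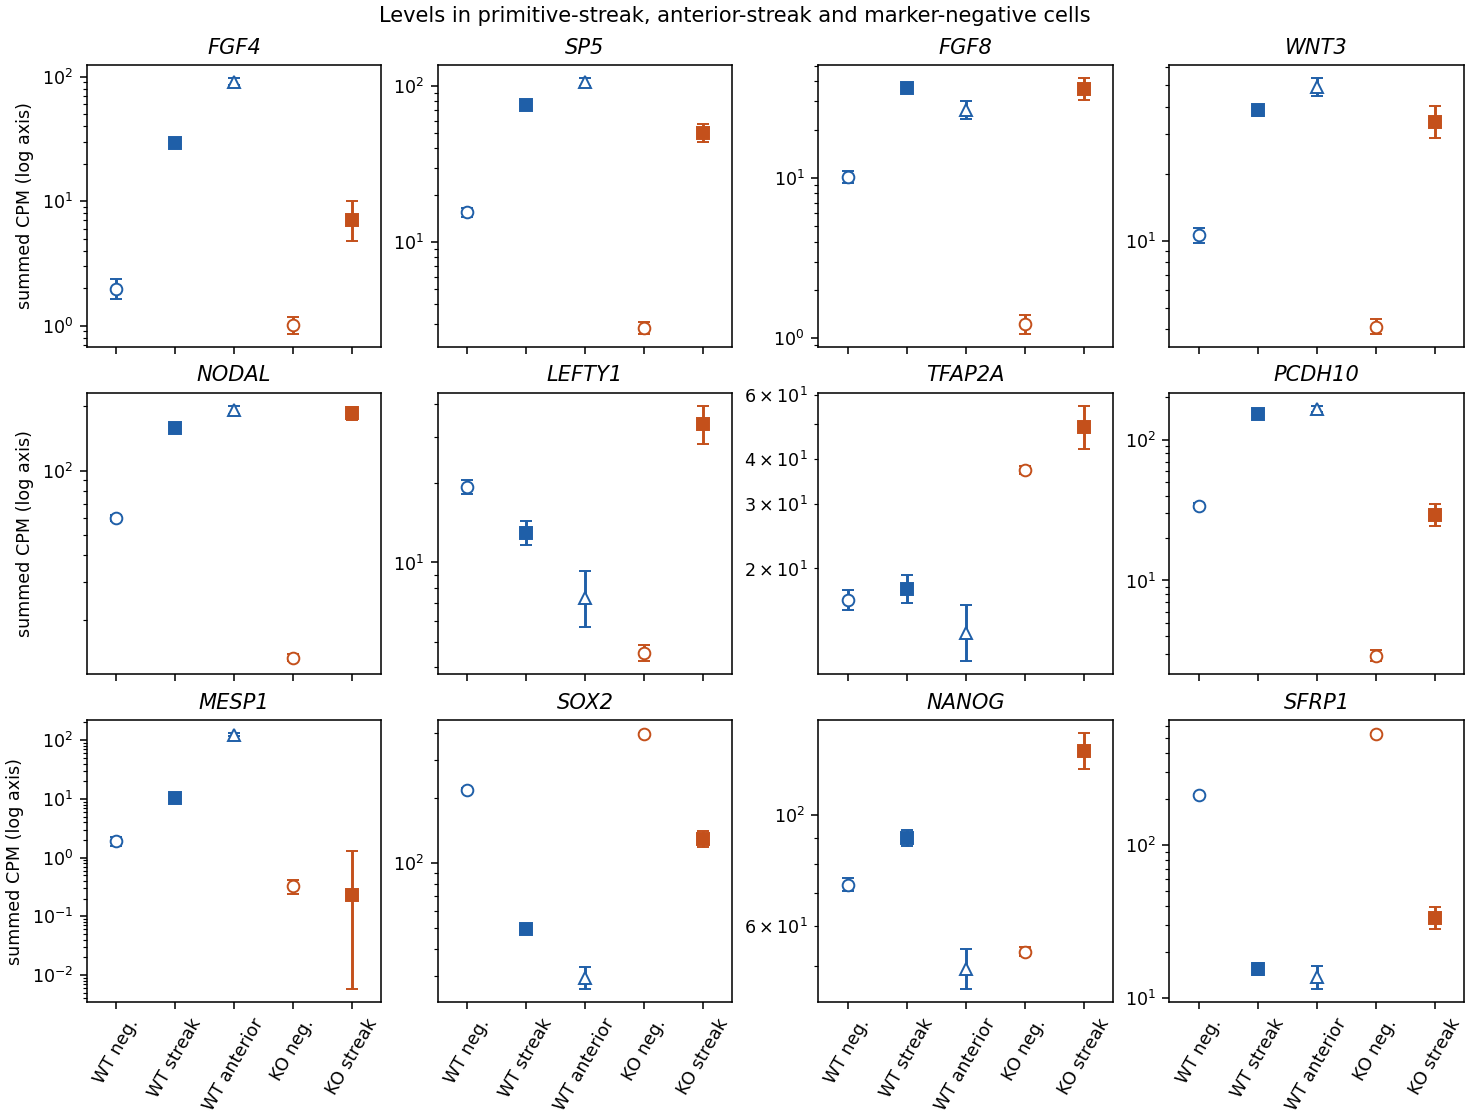
Summed CPM (log axes, each with its own range) of 12 genes in marker-negative cells (neg., open circles), primitive-streak cells (streak, filled squares) and anterior-streak cells (open triangle) of the WT library (blue) and in the marker-negative and primitive-streak cells of the GATA3 KO library (orange), with exact Poisson 95% intervals. The 9 anterior-streak cells of GATA3 KO are not drawn. NODAL, FGF8 and WNT3 are close between the streak cells of the libraries but lower in GATA3 KO outside them, as at 59.96 and 13.3 CPM for NODAL.

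The direct BMP response did not set the members apart past 2-fold. Of the BMP list, 0 of 9 measured genes in WT and 0 of 10 in GATA3 KO were called in either direction, with medians of 0.22 and 0.44. The summed level of its 22 genes was nevertheless higher in members. Its median over cells was 2199 CPM against 1327 CPM in marker-negative cells of WT, and 2862 against 1560 CPM in GATA3 KO. ID3, a direct BMP target, stood at 1316 CPM in WT members against 826 CPM in marker-negative cells, and at 1129 against 777 CPM in GATA3 KO. BMP4 itself was at 18.3 CPM (16.8 to 19.9) against 34.1 CPM (32.6 to 35.6) in WT. In GATA3 KO the ratio of BMP4 to the other cells was below 0, but it was 0.26 and 0.00085 under the thinned rules of 1 and 2 UMIs. TFAP2A, an early amnion and surface ectoderm factor, was at 17.6 CPM (16.1 to 19.1) against 16.4 CPM (15.4 to 17.5) in WT and at 49.0 CPM (42.7 to 56.0) against 37.2 CPM (36.3 to 38.2) in GATA3 KO. Neither amnion genes (0 of 2 measured in WT, 0 of 3 in GATA3 KO), nor germ-cell genes (0 of 1 in each), nor Notch genes (0 of 2 and 0 of 1) were called. Of the neural list, IRX2 was called lower in both libraries and OTX2, a head and forebrain factor, in GATA3 KO. None of the 14 measured S-phase genes or the 15 G2/M genes was called in either library.

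Outside these lists, the genes with the highest ratios in WT members included CYP1B1, a monooxygenase, at 62.2 CPM (59.4 to 65.1) against 14.1 CPM (13.2 to 15.1) in marker-negative cells. GAD1, which makes GABA, was at 28.3 CPM (26.4 to 30.3) against 6.03 CPM (5.42 to 6.69). SERPINE2, a secreted protease inhibitor, was by far the most abundant of the 12 highest, at 939 CPM (928 to 950.4) against 266 CPM (262 to 269.9). The others in that group were GMPR, AL353751.1, SYT4, ADAMTS1, IER3 and P2RY1, with ratios from 1.32 to 1.54, beside PCDH10, FGF8 and SP5. Among the 8 lowest were the metallothioneins MT1G (1.59 CPM in members, 46.3 CPM in marker-negative cells) and MT1H, the natriuretic peptide gene NPPB, and APELA, a peptide hormone of pluripotent cells. IDO1, a tryptophan-degrading enzyme, and UTF1, a chromatin factor of pluripotent cells, were among the 6 lowest in GATA3 KO, at 1.15 against 21.5 and 5.27 against 27.3 CPM in the other cells.

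The WT members were not uniform. They were grouped by which rule gene had the most UMIs in a cell, a grouping chosen after values of these cells had been seen. MIXL1 led in 364 cells (58.0%), EOMES in 166 (26.4%) and TBXT in 36 (5.73%), with 62 ties left out. The medians of UMIs per cell were 50431.5, 44888.5 and 49780.5, and those of the rule-gene level 4.11, 1.93 and 1.76 per 10000, so MIXL1-led cells stood higher on the rule itself. In TBXT-led over MIXL1-led cells, 60 of 5196 genes were called higher (1.15%) and 52 lower (1%), with a median of -0.07. TBXT among the higher and MIXL1 among the lower are set by the grouping. Between EOMES-led and MIXL1-led cells, SOX2 was the 1 gene called higher, and the 1 called lower was MIXL1, which the grouping fixes.

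The TBXT-led cells were higher in part of the amnion and BMP lists, and in some genes of other lists. TFAP2A stood at 58.1 CPM (46.9 to 71.2) in the TBXT-led cells, 14.4 CPM (11.8 to 17.5) in the EOMES-led and 14.8 CPM (13.1 to 16.7) in the MIXL1-led cells. GATA3, the factor targeted in the other library, stood at 41.2 CPM (31.9 to 52.4), 17.0 CPM (14.2 to 20.3) and 10.48 CPM (9.03 to 12.1) in the same order, and had a UMI in 23 of the 36 TBXT-led cells. TFAP2C, a partner of TFAP2A that also acts in germ cells, stood at 40.0 CPM (30.8 to 51.0), 12.0 CPM (9.65 to 14.8) and 7.89 CPM (6.64 to 9.31). For these factors the interval of the TBXT-led cells lay above those of both other groups. Of the amnion list, 4 of 5 measured genes were called higher than in MIXL1-led cells (TFAP2A, TFAP2C, GATA3 and KRT8, median 1.88) and 0 lower. Of the BMP list, 5 of 11 were called higher (BMP4, ID4, BAMBI, MSX1 and GATA3, median 0.81), and 1 cell held 59.5% of the MSX1 UMIs. Among low amnion genes, GABRP, VTCN1 and TP63 had 0 UMIs in the TBXT-led cells, which allows up to 3 UMIs of 1601022. These zeros cannot be told from their levels of 1.18, 0.056 and 0.169 CPM in MIXL1-led cells. WNT6 stood at 5.62 CPM in TBXT-led cells against 0.676 CPM in MIXL1-led cells. In the same order, FN1 of the adhesion list stood at 270 and 77.7 CPM, and TBX3 at 21.9 and 7.72 CPM. SOX17 stood at 19.4 CPM (13.2 to 27.5) and 11.1 CPM (9.61 to 12.8), with 32.3% of its TBXT-led UMIs in 1 cell.

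The same TBXT-led cells were lower in the streak ligands. FGF8 stood at 7.50 CPM (3.87 to 13.1), against 34.0 CPM (29.9 to 38.5) in EOMES-led and 39.2 CPM (36.4 to 42.3) in MIXL1-led cells. FGF4 stood at 6.25 CPM (2.995 to 11.5), 18.6 CPM (15.7 to 22.0) and 37.0 CPM (34.3 to 40.0), and NODAL at 106 CPM (90.8 to 123), 143 CPM (135 to 152) and 169 CPM (163 to 175). WNT3 overlapped between the groups, at 31.2 CPM (23.2 to 41.2), 34.0 CPM (29.9 to 38.5) and 40.8 CPM (37.9 to 43.9). SOX2 was highest in the EOMES-led cells at 82.1 CPM (75.7 to 88.9), followed by the MIXL1-led at 39.0 CPM (36.2 to 42.02) and the TBXT-led cells at 15.0 CPM (9.60 to 22.3). One cell held 50% of the 10 FGF4 UMIs of the TBXT-led cells. The CPM intervals of the posterior factors CDX1 and EVX1 overlapped between the TBXT-led and MIXL1-led cells. The log2 ratio of TBXT-led over MIXL1-led cells was 0.97 (0.19 to 1.70) for CDX1 and -0.09 (-0.89 to 0.66) for EVX1. For CDX2, a further caudal factor, it was 1.30 (0.40 to 2.12), at 6.87 CPM (3.43 to 12.3) against 2.20 CPM (1.56 to 3.01). Of the 11 CDX2 UMIs of the TBXT-led cells, 45.5% lay in 1 cell. CDX1, with 40% of its 15 UMIs of the TBXT-led cells in 1 cell, was at 9.37 CPM (5.24 to 15.5), 1.89 CPM (1.03 to 3.17) and 4.28 CPM (3.38 to 5.36) in TBXT-led, EOMES-led and MIXL1-led cells, and EVX1 at 8.12 CPM (4.32 to 13.9), 3.65 CPM (2.40 to 5.30) and 8.68 CPM (7.36 to 10.2). HAND1 was at 9.99 CPM (5.71 to 16.2) in the TBXT-led cells, above the 1.35 CPM (0.647 to 2.48) and 2.71 CPM (1.99 to 3.59) of the others, with 37.5% of its 16 UMIs in 1 cell. KRT7 was a single UMI in the TBXT-led cells. Of the GATA3 KO members MIXL1 led in 27, EOMES in 54 and TBXT in 6, too few to be described gene by gene.

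**Figure D3:**
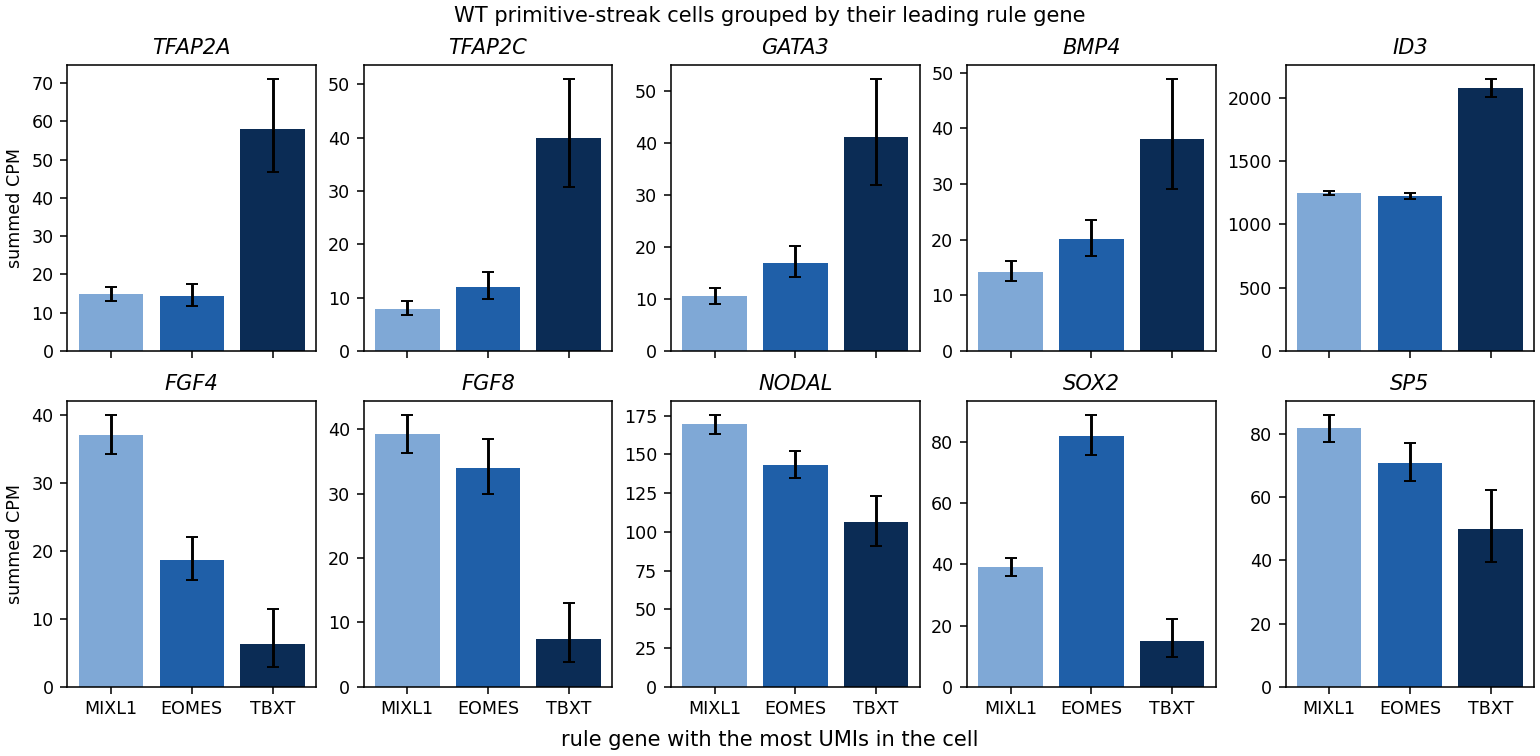
Summed CPM of 10 genes in the WT primitive-streak cells in which MIXL1 (364 cells), EOMES (166) or TBXT (36) had the most UMIs of the 3 rule genes, with bars from 0 and exact Poisson 95% intervals. TFAP2A, TFAP2C, GATA3, BMP4 and ID3 are highest in the TBXT-led cells, and FGF4, FGF8 and NODAL lowest there.

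The level of a gene also followed the summed level of the rule genes. In WT, FGF4 stood at 3.89 CPM in members between 1 and 2 per 10000, 16.1 CPM between 2 and 4, 50.7 CPM between 4 and 8 and 97.8 CPM at 8 or more. SP5 went from 58.8 to 69.3, 87.9 and 121 CPM over the same steps, and NODAL from 133 to 155, 179 and 196 CPM. SOX2 went the other way, from 68.9 to 47.9, 35.6 and 26.5 CPM. FGF4 thus varied most steeply with the rule genes and was near the background in the lowest step, while SP5 and NODAL were already above it. LEFTY1 went from 17.9 CPM in the lowest step to 3.64 CPM in the highest. These steps share the cells and the counts from which the rule was computed.

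The question of the study's second library was how cells without intact GATA3 respond to BMP4, and here it was asked of the members alone. Between GATA3 KO and WT members, 123 of 5493 genes were called higher in GATA3 KO (2.24%) and 92 lower (1.67%), with a median ratio of 0.07. Since GATA3 KO members lay closer to the cut, ratios within steps of the rule-gene level are given beside the pooled ones. The same ratio in marker-negative cells shows how far a difference was shared by cells outside the streak. Marker-negative cells without any rule-gene UMI made up 59.3% in WT and 87.3% in GATA3 KO, and the part of this difference in these ratios was not tested.

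The ligands NODAL, FGF8 and WNT3 differed less between the libraries inside the streak cells than outside them. FGF4 differed more inside over all members pooled, but not clearly so within steps of the rule-gene level. For NODAL the log2 ratio of GATA3 KO over WT was 0.22 (0.11 to 0.33) in members and -2.09 (-2.16 to -2.02) in marker-negative cells. For FGF8 it was -0.01 (-0.26 to 0.22) and -2.32 (-2.47 to -2.17), and for WNT3 -0.17 (-0.42 to 0.07) and -1.18 (-1.31 to -1.04). The levels in members were within their intervals for FGF8 and WNT3, and NODAL was slightly higher in GATA3 KO. For LEFTY1 the ratios were 1.30 (1.03 to 1.57) and -1.88 (-1.99 to -1.76). Within steps of the rule-gene level from 1 to 2, 2 to 4 and 4 to 8 per 10000, the ratio of NODAL was 0.29, 0.34 and 0.59, and that of LEFTY1 0.74, 0.79 and 2.55. The step from 4 to 8 held only 12 GATA3 KO members. LEFTY1 was unevenly spread there: it had a UMI in 23 of the 54 EOMES-led GATA3 KO members, and 1 cell held 24.4% of those UMIs. Under the thinned rule of 1 UMI, which admitted 225 GATA3 KO cells, the ratio of NODAL in members became -0.47.

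SP5 and FGF4 were lower in the GATA3 KO members. The ratio of SP5 was -0.59 (-0.79 to -0.39) over all members, and -0.70, 0.18 and -0.39 in the 3 steps, with intervals that cross 0 in the upper 2. That of FGF4 was -1.90 (-2.38 to -1.43) over all members and -0.79, -0.84 and -0.75 in the 3 steps, where the intervals of the lower 2 cross 0. In marker-negative cells, where FGF4 was low in both libraries, its ratio was -0.57 (-0.78 to -0.36). The FGF4 difference was thus smaller within each step than over all members. SOX2 was higher in the GATA3 KO members at 1.38 (1.24 to 1.52), at 1.07, 1.15 and 1.39 in the 3 steps, and at 0.85 (0.83 to 0.88) in marker-negative cells. NANOG was higher in the members at 0.57 (0.44 to 0.70) but lower in the marker-negative cells at -0.44 (-0.49 to -0.38).

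**Figure D4:**
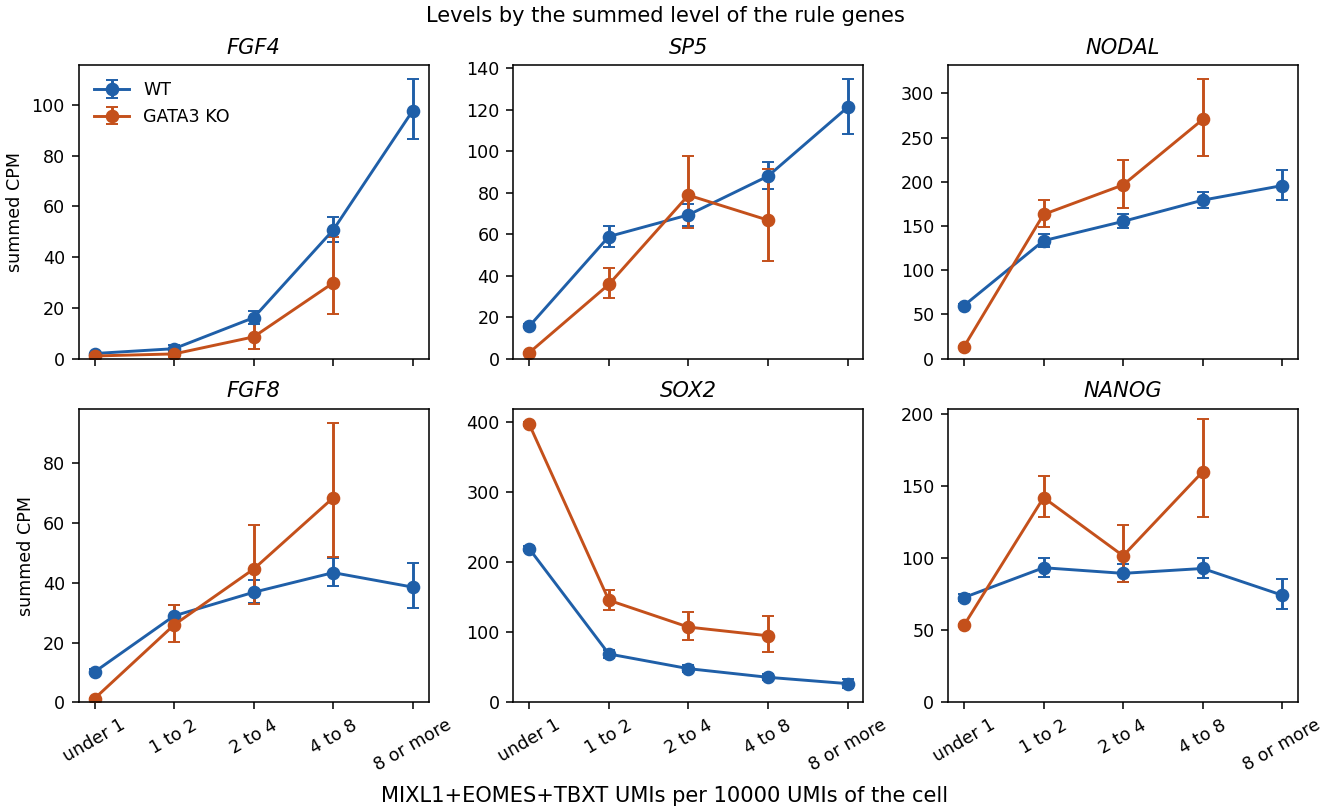
Summed CPM of 6 genes in filtered cells under the CER1 and GSC limit, by steps of the summed MIXL1, EOMES and TBXT level per 10000 UMIs, in WT (blue) and GATA3 KO (orange), with exact Poisson 95% intervals. FGF4, SP5 and NODAL are higher in each further step of WT, SOX2 is highest below the cut of 1 in both libraries, and GATA3 KO has no member at 8 or more.

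Other differences were present in both members and marker-negative cells. LINC00458, a long non-coding RNA of pluripotent cells, stood at 434 CPM (427 to 442) in WT members and 44.9 CPM (38.8 to 51.6) in GATA3 KO members, a ratio of -3.25 (-3.45 to -3.05) beside -3.17 (-3.23 to -3.11) in marker-negative cells. SERPINE2 had ratios of -2.10 (-2.19 to -2.01) and -2.24 (-2.28 to -2.20). PCDH10 had ratios of -2.33 (-2.59 to -2.09) and -3.16 (-3.28 to -3.05), a smaller difference in the members. SERPINE2 and PCDH10 were among the highest ratios of WT members to other cells. In GATA3 KO members all of these genes stood below the WT level by more than 2-fold. The remaining lowest genes were AL353751.1, AC131094.1, AL009031.1, MT1X, QPCT and GMPR, with ratios from -3.54 to -2.21. AL353751.1 overlaps LIPA and IFIT2, and AL009031.1 lies opposite GMPR within it, so their counts are uncertain.

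Among the highest ratios in GATA3 KO members, ACTC1, the cardiac actin gene, stood at 319 CPM (302 to 336) against 60.2 CPM (57.5 to 63.1), with a ratio of 2.39 (2.28 to 2.49) beside 1.39 (1.36 to 1.42) in marker-negative cells. ADM, a secreted vasoactive peptide, had ratios of 2.19 (1.93 to 2.46) and 1.76 (1.68 to 1.84), and FZD2, a WNT receptor, of 1.94 (1.62 to 2.25) and 1.37 (1.26 to 1.47). SPP1, a secreted matrix protein, differed more inside the members, at 1.77 (1.58 to 1.95) against 0.42 (0.35 to 0.48). PAM16, NME2 and FAM20A, the first 2 with neighbouring or read-through genes that can share their reads, had ratios of 2.49, 1.77 and 1.77. BCL2L1, which blocks apoptosis, had ratios of 1.61 (1.32 to 1.89) and 1.43 (1.33 to 1.54). It lies on chromosome 20 (31664452 to 31723989, GRCh38) beside ID1 and HM13, whose ratios in members were 1.496 and 1.54, and the part of BMP signalling in the value of ID1 was not tested.

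By list, the GATA3 KO members were called higher than the WT members in 2 of 3 measured amnion genes (TFAP2A and KRT8, median 1.02), 2 of 10 BMP genes (BMP4 and ID1, median 0.18) and 1 of 13 pluripotency genes (SOX2, median 0.24), with 0 called lower in these lists. TFAP2A had a ratio of 1.43 (1.20 to 1.66) in members and 1.14 (1.04 to 1.23) in marker-negative cells, and KRT8 of 1.02 in both. Of 12 FGF genes 2 were called lower (FGF4 and SPRY2) and 0 higher, and of 10 adhesion genes 3 lower (CDH2, HAS2 and PCDH10) and 1 higher (CLDN6, a tight-junction protein of pluripotent cells). Of 10 NODAL pathway genes only LEFTY1 was called, higher, and of 6 WNT ligands and receptors only FZD2. None of the 14 S-phase or 15 G2/M genes was called.

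**Figure D5:**
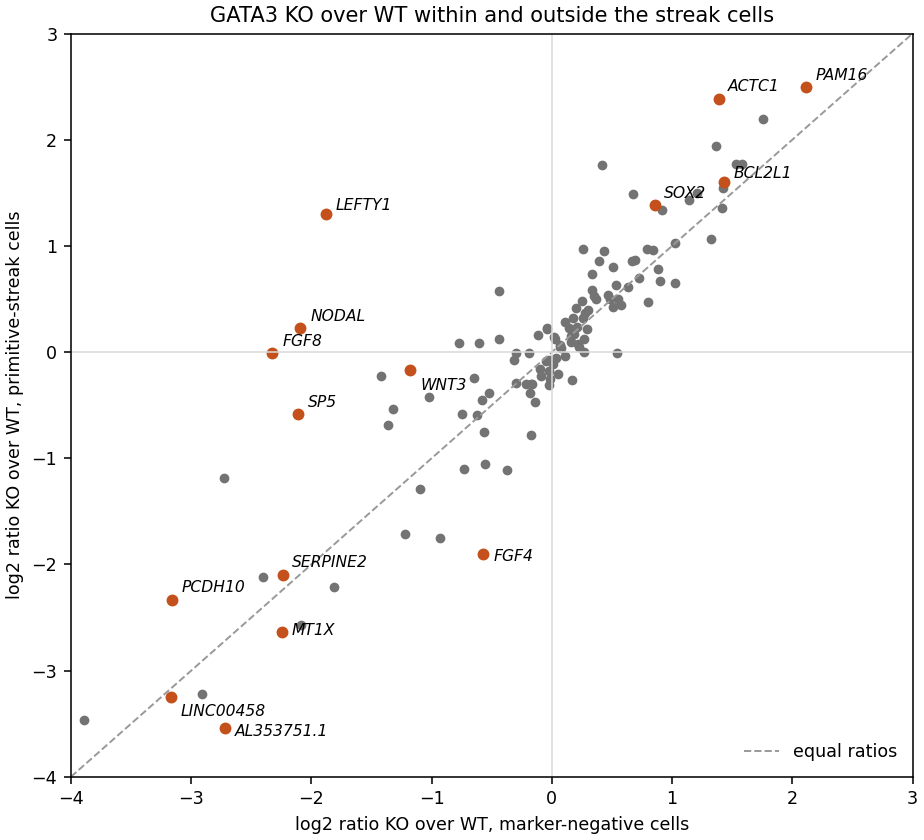
Log2 ratio of GATA3 KO over WT in primitive-streak cells (vertical) against the same ratio in marker-negative cells (horizontal), for 126 list and named genes of at least 20 CPM in either set of members, the rule genes left out, with the line of equal ratios dashed and genes discussed in the text in orange. NODAL, FGF8, LEFTY1, SP5 and WNT3 lie above the line, and LINC00458, SERPINE2 and BCL2L1 lie close to it.

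Counts of cells gave the same order as summed counts for the main markers. After thinning to 10000 UMIs, NODAL was detected in 73.1% (69.4 to 76.5) of WT members and 77.4% (67.6 to 85.4) of GATA3 KO members, against 33.5% (31.0 to 36.1) and 7.67% (6.86 to 8.55) of marker-negative cells. FGF8 was detected in 29.0% (25.5 to 32.7) and 26.9% (18.2 to 37.1) of members, against 7.30% (5.96 to 8.82) and 1.27% (0.944 to 1.67). SP5 was detected in 46.8% (42.9 to 50.8) and 34.4% (24.9 to 45.0) of members, against 11.2% (9.60 to 13.1) and 2.16% (1.73 to 2.66). Without thinning the shares in members were 96.3% and 95.7% for NODAL, 63.7% and 59.1% for FGF8 and 82.0% and 62.4% for SP5. Each share in members was above that in marker-negative cells of its own library, which stands for free RNA and for cells below the cut alike. FGF4 in the GATA3 KO members, at 5.38% (1.77 to 12.1), was above its 0.965% (0.684 to 1.32) in marker-negative cells on only 5 cells.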

How the data were processed

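Transcripts were measured by 10x Genomics 3′ v3 single-cell RNA sequencing in 1 library per group, grouped by the deposited labels. The authors aligned reads with Cell Ranger 3.0.2 to GRCh38 and deposited whole UMI counts per gene (33538 genes) and cell barcode, which are not normalized. A 3′ count does not show whether a coding sequence is intact, and reads of near-identical or overlapping genes can be lost or split. Total UMIs of the members were 29500662 (WT) and 4365383 (GATA3 KO).

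Counts were summed over the cells of a set and divided by their total to give counts per 1000000 UMIs (CPM), with exact Poisson 95% intervals. Shares carry Clopper-Pearson intervals. Ratios are log2 of CPM plus 1, with intervals from the exact binomial of both counts, checked on simulated data. All intervals cover counting error only, and cells of 1 library are not replicates, so no p-value is given. Where a count is 0, 3 counts of the total is the limit stated. Detection was taken after thinning each cell to 10000 UMIs, which left out 0 filtered cells because all hold at least 10000. Doublets were not removed. Scrublet in scanpy 1.11.5 called 1 WT and 2 GATA3 KO cells at its automatic threshold, which does not show that doublets are absent. Removal of the 116 highest scores in WT and the 310 highest in GATA3 KO was an alternative.

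The members, the 19 gene lists and the tests were chosen with earlier results of these data known. Named genes were GATA3, list genes, and, without rule, mitochondrial, Y-linked and XIST genes, those with the highest and lowest ratios (12 and 8 for WT members over other cells, 6 and 6 for GATA3 KO, 8 and 8 between libraries) among genes of at least 20 CPM with the same direction in mean per-cell CPM. One gene that this rule names is not reported here. The grouping by leading rule gene and HM13, CLDN10 and other genes outside that rule were chosen after values were seen. Promoter windows came from RefSeq (GRCh38.p14) by symbol, with 6 of 8 genes matched, FGF4 and FGF8 not among them. Positions came from GENCODE v44, also GRCh38, by identifier (33113 genes). Alternatives were other cell limits, cuts, pseudocounts, minimum levels, thinning and TMM scaling (edgeR 4.0.16, R 4.3.3). Python 3.11.15 was used.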

Additional observations from a re-analysis of the deposited data

Results flagged for a closer look

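Ratios of primitive-streak cells to the other filtered cells of their library pointed in opposite directions in WT and GATA3 KO for 3 genes of at least 20 CPM, with both counting intervals clear of 0. The difference between the libraries was not tested. SPP1, a secreted matrix protein, was at -0.62 in WT and 0.58 in GATA3 KO. ALPL, an alkaline phosphatase of pluripotent and germ cells, was at 0.15 and -0.36. L1TD1, an RNA-binding protein of pluripotent cells, was at -0.046 and 0.14.

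Cells above 7500 detected genes were outside every comparison. The rule on the 5 genes was passed by 347 of 1012 such cells in WT (34.3%, 31.4 to 37.3) and by 53 of 1265 in GATA3 KO (4.19%, 3.15 to 5.44), against 28.9% and 2.30% of the filtered cells. Whether such cells are doublets was not tested.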

How the results depend on the processing

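The WT share of primitive-streak cells stayed above the GATA3 KO share under all 14 other ways of choosing cells, by 5.99-fold to 24.4-fold. The shares (WT and GATA3 KO, then the difference in points) were 38.7% and 5.05% (-33.7) at 0.5 per 10000, 19.7% and 0.842% (-18.9) at 2 per 10000, and 20.8% and 1.24% (-19.6) thinned with 2 UMIs. They were 33.4% and 5.57% thinned with 1 UMI. They were 38.0% in WT (-35.5) without the limit on CER1 and GSC, 21.1% and 1.56% (-19.5) without MIXL1, 21.7% and 0.892% (-20.8) without EOMES, and 25.3% in WT (-23.3) without TBXT. Counts of called genes, higher and lower, were 57 and 84 (WT), 147 and 163 (GATA3 KO) and 255 and 203 (between libraries) at 5 CPM, and 63 and 127, 190 and 321, and 325 and 366 with no minimum level. Thinned with 1 UMI they were 15 and 18 in WT and 31 and 8 in GATA3 KO. They were 90 and 56 in WT without the limit on CER1 and GSC, and 75 genes were higher there once the CER1 and GSC cells were taken out of the other cells, an alternative chosen after seeing the data. In GATA3 KO 89 genes were lower at 2 per 10000 and 88 without EOMES.

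Of 1202 ratios of 20 genes under alternatives, 12 reversed. In WT members over other cells, GATA3 was -0.24 without the gene limit, -0.13 at 2 per 10000 and -0.028 without TBXT, LEFTY1 was 0.022 thinned with 1 UMI, and MESP1 was 3.72 without the limit on CER1 and GSC and 1.97 against other cells without CER1 and GSC cells. In GATA3 KO, BMP4 was 0.26 and 0.00085 and HAND1 1.18 under thinning (1, 2 and 2 UMIs), and TFAP2A was -0.060 without EOMES. Between libraries, thinned with 1 UMI, GATA3 was 0.10 and NODAL -0.47. The cause was not tested. No paired analysis was possible because each group is 1 library, so no replicate could be left out either. Members with few rule-gene UMIs limit the depth: 50 WT and 14 GATA3 KO members had 4 or fewer.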
